A study of Oryza sativa with 9 samples.

Results

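The genes described here are the rice gene models whose name or description speaks of auxin: those that mention auxin, IAA with a number, indole-3-acetic acid, SAUR, GH3 or YUCCA. Matching the names and descriptions gave 130 such models of 105692 listed. The match itself used no measured value, though it was set up with earlier results of these data known. They fall into 25 Aux/IAA models, 39 response factors, 13 transporters, 12 SAUR models, 14 GH3 models and 27 further models whose description names auxin. These classes rest on the wording of names and descriptions, so a family member described in general terms can fall among the further models. The search words for auxin synthesis, YUCCA and indole-3-pyruvate monooxygenase, matched 0 models. RNA came from roots of 7-day-old rice of the cultivar Dongjin, raised in soil under a day of 10 h light and 14 h dark. The 9 libraries form 3 lines of 3. OE2 is labelled as overexpressing dgk1, a diacylglycerol kinase gene. The line dgk1 is labelled as its knockout (dgk1-1 in the design text). WT is the wild type of the same cultivar. The sources used here do not give the promoter behind OE2 or the number of plants per library, and each altered line is a single line. The submitters call the 3 libraries of a line biological repetitions, so the tests measure the spread between these.

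Auxin (indole-3-acetic acid, IAA) moves from cell to cell through import carriers of the AUX1 type and export carriers of the PIN type. Inside the nucleus it binds receptors of the TIR1 type and leads to the breakdown of Aux/IAA repressors, which otherwise hold the auxin response factors (ARFs) in check. SAUR, GH3 and many Aux/IAA genes are switched on within a short time by auxin. GH3 enzymes tie IAA to amino acids, and hydrolases can release it again. In roots this system sets the growth of the tip, the branching into lateral and crown roots and the bending with gravity.

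The libraries held 8908397 to 12459460 fragments. Along the first principal component of all tested models, which took 38.5% of the variance, OE2 lay at 60.3 to 67.1 and the other 6 at -39.8 to -25.2. WT replicate 1 and OE2 replicate 2 stood apart along the third, with 11.9% of the variance, at 53.8 and 32.8. The targeted gene, OS04G0634700, was listed at 0 in all libraries. The files also hold models with a running number in place of an identifier, and model 25546, of this kind, spans the same bases. It had 0.521, 0.625 and 0.571 FPKM under the label OE2, 7.24, 5.60 and 9.16 FPKM under dgk1, and 0.896, 0.738 and 0.487 FPKM under WT. These values go against the labels of both altered lines, so OE2 and dgk1 mean in what follows the libraries labelled so, and every direction below is between labelled groups. Of 13 root marker models 8 passed the filter given below, and their summed level was 353 to 1574 FPKM in OE2, 431 to 585 in dgk1 and 382 to 405 in WT. The silicon importer NIP2-1, a defining root gene, and a Casparian strip membrane protein were listed at 0 in all libraries, while the silicon exporter LSI2 averaged 235 FPKM. Green tissue markers, 40 models of which 19 passed and 8 were at 0 throughout, summed to 237 to 339 FPKM in OE2, 165 to 218 in dgk1 and 230.0 to 348 in WT; their part in the results was not tested.

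FPKM scales fragments to the length of the gene model and the depth of the library, so levels of different genes can be set side by side. A model was tested if it reached 1 FPKM in at least 3 of the 9 libraries, and 65 of the 130 models did, 15 Aux/IAA models, 11 response factors, 7 transporters, 9 SAUR models, 4 GH3 models and 19 others. Of the rest, 37 were listed at 0 in every library. Among the 65, 4 would miss the filter without the libraries of 1 line, and for GH3.3 all 3 libraries that reached it were of dgk1. A model is said to have risen or fallen only where limma's test, adjusted over all 22383 tested models, gave an adjusted p under 0.05. Log2 fold changes were taken on log2(FPKM + 1) and carry their standard error. In RNA from whole roots, fewer cells of a type and less RNA per cell cannot be told apart.

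Part of the family could not be read from the annotated models. A numbered model lies over 31 of the 93 annotated auxin models, and 22 of these 31 had 0 FPKM everywhere, where 3 of the 62 without such a partner did. For 13 of those 22, fragments were listed under the numbered model. The response factors show this best. OS08G0520550 was at 0 throughout and its partner, model 38053, collected 4423 fragments. ARF7 was at 0 and model 15141 at its locus had 913, and OS01G0670800 was at 0 and model 3123 had 684. PIN2, which in roots carries auxin through the outer layers, was listed at 0 in every library. The numbered model 32032 with the same span, a membrane transport protein that the search words do not match, held 206 fragments, at 0.464, 0.490 and 0.856 FPKM in OE2, 0.799, 0.547 and 0.973 FPKM in dgk1 and 0.554, 0.514 and 0.455 FPKM in WT. IAA6 was also listed at 0 throughout, and neither numbered model over it carries an Aux/IAA domain. A level of 0 for these annotated models is thus a listing and does not by itself show silence. For those of the 22 outside the 13, the numbered model was at 0 as well. Some partners among the 13 held few fragments, such as 1 in model 24591 and 5 in model 25801. Whether such loci are silent was not tested.

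In the comparison of OE2 with WT, limma called 2 of the 65 auxin models, both lower: the exporter PIN1C and the repressor IAA24. Of all tested models 6.96% were called, 3.71% higher and 3.24% lower. At an unadjusted p under 0.05, 12 of the 65 (18.5%) lay lower and 2 (3.08%) higher, where 10.5% and 10.2% of all tested models did. In 43 of the 65 (66.2%) the fold change was below 0, against 49.2% of all tested models, and the median log2 fold change was -0.12 against 0.01. The OE2 and WT libraries did not overlap for 14 models (21.5%) that were lower in OE2 and 4 (6.15%) that were higher, beside 12.4% and 12% of all (24.3% in either direction).

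OE2 set against dgk1 gave 2 calls of 65, ARF8 lower and OS07G0486500 higher, where 6.36% of all tested models were called, 3.2% higher and 3.15% lower. At an unadjusted p under 0.05, 13 (20.0%) were lower and 2 (3.08%) higher, against 9.27% and 9.42% of all. In 40 of the 65 (61.5%) the fold change was below 0, against 50.3% of all, and the median was -0.16 against -0.00. For 15 models (23.1%) OE2 lay wholly below dgk1 and for 3 (4.62%) wholly above, beside 13.3% of all in each direction. This comparison shares its OE2 libraries with the one above, so the 2 are not independent. In dgk1 against WT limma called 0 of 65 auxin models, where 0.675% of all tested models were called (0.532% higher and 0.143% lower). An unadjusted p under 0.05 was found for 4 of them (6.15%, against 11.1% of all), 2 higher and 2 lower, where 6.05% of all were higher and 5.08% lower. On the whole fragments recovered from the values, limma's voom also called 0. The median was -0.02, and 33 of the 65 (50.8%) lay below 0, against 51% of all. The dgk1 libraries lay wholly above WT for 9 models (13.8%) and wholly below for 1 (1.54%), beside 8.39% and 7.09% of all. GH3.3, which reached the filter through dgk1 alone, is among these 9. It is also among the 13 and the 15 models lower in OE2 than in dgk1.

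**Figure D1:**
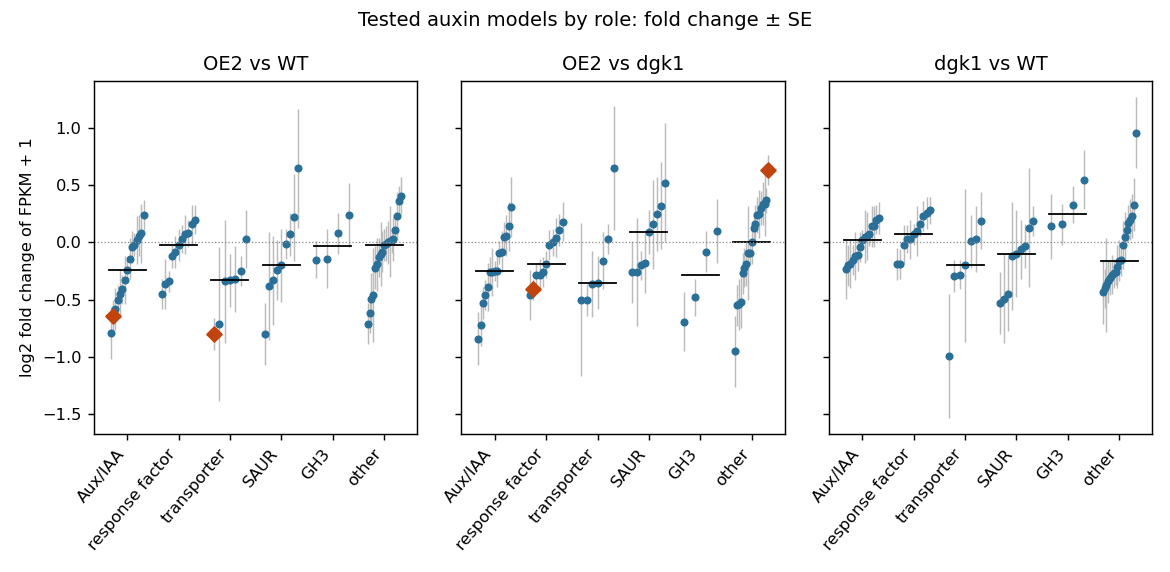
Log2 fold change of FPKM + 1 for each of the 65 tested auxin models, grouped by role, in OE2 against WT, OE2 against dgk1 and dgk1 against WT. Grey bars are standard errors, black lines class medians and orange diamonds the models called by limma; most Aux/IAA and transporter points lie below 0 in both comparisons of OE2, and no diamond stands in dgk1 against WT.

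Of the 7 tested transporters 1 was called, in OE2 against WT, where 6.96% of all tested models were called and 3.24% fell. PIN1C (OS06G0232300, an auxin exporter) lies on chromosome 6 at 6866393 to 6869521, plus strand. It had 4.81, 5.05 and 5.36 FPKM in OE2, 7.69, 6.64 and 8.58 FPKM in dgk1, and 9.76, 8.31 and 10.7 FPKM in WT. All 3 OE2 libraries lay below all others, and the dgk1 and WT libraries overlapped. PIN1C fell to 5.07 ± 0.276 FPKM in OE2, against 9.59 ± 1.20 FPKM in WT (SD, n = 3 each; log2 fold change -0.80 ± 0.14, limma adjusted p = 0.00787). Against dgk1, at 7.64 ± 0.973 FPKM, the log2 fold change of OE2 was -0.50 ± 0.14 and missed the threshold (limma adjusted p = 0.0722). dgk1 against WT gave -0.29 with a 95% interval of -0.60 to 0.02. The call in OE2 against WT held in all 17 alternative settings, with limma adjusted p between 0.00328 and 0.0375. In that comparison limma called 13.0% of the models tested on chromosome 6, and 7 of 145 (4.83%) within 1 Mb of PIN1C. The antisense model 30337, inside the PIN1C span, held 10 fragments in OE2, 25 in dgk1 and 28 in WT; the sources used here do not say if strand was used in counting.

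The most abundant transporter was OS01G0856500, the import carrier auxin transporter-like protein 1 of the AUX1 type. It had 16.2, 15.3 and 14.4 FPKM in OE2, 17.6, 12.5 and 15.1 FPKM in dgk1, and 19.0, 18.5 and 17.5 FPKM in WT. The OE2 libraries lay just below those of WT, a gap that did not pass the test (log2 fold change -0.25 ± 0.13, limma adjusted p = 0.328), and OE2 and dgk1 overlapped. Of the 7 tested transporters 6 had a fold change below 0 in OE2 against WT (class median -0.33) and 5 in OE2 against dgk1 (-0.35). Over all tested models 49.2% and 50.3% lay below 0 in these comparisons. The median for dgk1 against WT was -0.20. Summed over all 13 models, transporters had 30.6, 38.1 and 27.7 FPKM in OE2, 34.9, 29.5 and 38.9 FPKM in dgk1 and 46.4, 39.7 and 42.2 FPKM in WT. On this sum OE2 and dgk1 overlapped, and both stayed below WT.

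Exporters other than PIN1C were low or uneven. PIN9, a PIN type known from monocots, had 1.65, 13.5 and 1.51 FPKM in OE2, 5.61, 3.65 and 7.99 FPKM in dgk1, and 11.2, 3.98 and 5.95 FPKM in WT. OE2 replicate 2 was the highest of all 9 libraries for it and the other 2 OE2 libraries the lowest, so no line stood apart. PIN5C, of a type that in Arabidopsis sits on the endoplasmic reticulum, had 5.23, 0.867 and 3.62 FPKM in OE2, 1.01, 3.35 and 0.595 FPKM in dgk1, and 1.98, 5.77 and 4.42 FPKM in WT. In each line the library highest in PIN9 (OE2 replicate 2, dgk1 replicate 3 and WT replicate 1) was the lowest in PIN5C, a pattern noticed after the values were seen. Of the 65 tested auxin models 11 (16.9%) were highest of their line in all 3 of these libraries, against 9.34% of all tested models, and 9 (13.8%) were lowest in all 3, against 8.66%. The 11 include PIN9 and the 9 include PIN5C, whose values picked these libraries, so the counts describe the pattern and do not test it. PIN1B averaged 0.964 FPKM, auxin efflux carrier component 8 (OS01G0715600) 0.884 and the import carrier OS10G0147400 1.06, and none was called. PIN5A, at 0.497 FPKM, and PIN1A, PIN3A, PIN3B and the putative import carrier OS11G0169200, at 0.163 FPKM or less, did not reach the filter.

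**Figure D2:**
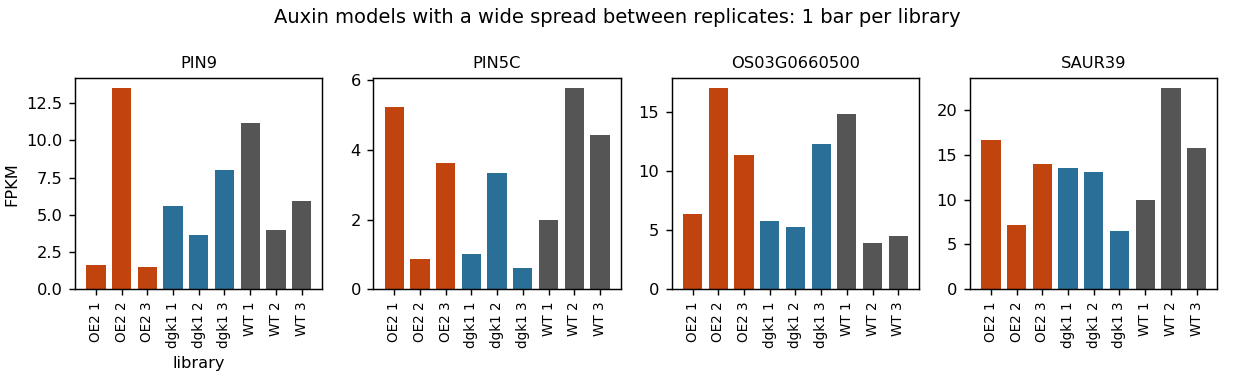
FPKM of PIN9, PIN5C, OS03G0660500 and SAUR39, 1 bar per library, with OE2 on the left, dgk1 in the middle and WT on the right of each panel. PIN9 and OS03G0660500 are highest in OE2 replicate 2, dgk1 replicate 3 and WT replicate 1 of their lines, where PIN5C and SAUR39 are lowest.

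Aux/IAA repressors were the most abundant of the named families, with a summed level of 946, 907 and 904 FPKM in OE2, 1004, 899.8 and 1056 FPKM in dgk1, and 1062, 989 and 959 FPKM in WT. The OE2 sums lay below every WT library and overlapped with dgk1. IAA19 alone made up 21.2% of the summed level of the class. In OE2 against WT 11 of the 15 tested repressors had a fold change below 0 (median -0.24), 1 fell and none rose, and 6 had an unadjusted p under 0.05, all of them lower; of all tested models 49.2% lay below 0, 3.24% fell and 10.5% were lower at an unadjusted p under 0.05. In OE2 against dgk1 it was again 11 of 15 (median -0.25), with none called by limma and an unadjusted p under 0.05 for 5, all lower, where 50.3% of all lay below 0, 6.36% were called and 9.27% were lower without adjustment. The medians over all tested models were 0.01 and -0.00. In dgk1 against WT, where 51% of all tested models lay below 0, 7 of the 15 did (median 0.02). There 0.675% of all tested models were called and 11.1% had an unadjusted p under 0.05. Of the 15 limma called none (0 by voom), nor had any an unadjusted p under 0.05 (0 of 15). These counts leave out models described as auxin-responsive proteins without an IAA number, such as OS03G0797800 below.

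IAA24 (OS07G0182400, chromosome 7, 4355211 to 4356572, minus strand) was the called repressor. It had 55.1, 45.0 and 46.5 FPKM in OE2, 74.5, 59.9 and 78.6 FPKM in dgk1, and 80.7, 82.9 and 66.8 FPKM in WT. The 3 OE2 libraries were the lowest of the 9. IAA24 fell to 48.9 ± 5.46 FPKM in OE2, against 76.8 ± 8.73 FPKM in WT (SD, n = 3 each; log2 fold change -0.64 ± 0.14, limma adjusted p = 0.0293). The direction was the same in every setting, but the call was lost without WT replicate 1 (limma adjusted p = 0.0885), WT replicate 2 (0.0749), OE2 replicate 2 (0.0932) or OE2 replicate 3 (0.106). It was also lost with no filter (limma adjusted p = 0.0534) and in a fit of the 6 libraries alone (0.05). OE2 against dgk1 gave -0.53 ± 0.14 and missed the threshold (limma adjusted p = 0.0709), though it passed without dgk1 replicate 2 (0.044) and with voom on the recovered fragments (0.0479). Of the 154 models tested within 1 Mb, 14 (9.09%) were called in OE2 against WT, and 6.62% over the whole of chromosome 7.

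IAA10, IAA8, IAA26, IAA21 and IAA1 also had their lowest mean in OE2, without a call. IAA10 had 17.4, 14.0 and 16.8 FPKM in OE2, 19.5, 22.5 and 25.6 FPKM in dgk1, and 23.4, 22.9 and 23.1 FPKM in WT. Every OE2 library lay below every other library (OE2 against WT -0.50 ± 0.13, limma adjusted p = 0.0533). IAA8, near the filter, had 0.517, 1.02 and 0.379 FPKM in OE2, 1.68, 1.44 and 1.86 FPKM in dgk1, and 1.65, 1.30 and 1.29 FPKM in WT, and here too OE2 did not overlap with the others. Its log2 fold change in OE2 against dgk1 was -0.72 ± 0.18 (limma adjusted p = 0.054), and the threshold was passed without OE2 replicate 2 (0.0218), with upper quartile scaling (0.0467), without trend or robust variance (0.0356) and with voom (0.0387).

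IAA26 had 3.21, 2.72 and 4.07 FPKM in OE2, 6.76, 6.44 and 6.91 FPKM in dgk1, and 8.64, 4.16 and 7.28 FPKM in WT. OE2 lay below the rest, and WT replicate 2, at 4.16 FPKM, came close to the highest OE2 library, at 4.07 FPKM. OE2 against WT gave -0.79 ± 0.23 (limma adjusted p = 0.0873) and OE2 against dgk1 -0.84 ± 0.23 (0.0767). Without WT replicate 2 both passed the threshold (limma adjusted p = 0.00937 and 0.0144), and a fit of the 6 libraries alone called OE2 against dgk1 as well (0.0231). IAA21 had 90.6, 66.0 and 79.7 FPKM in OE2, 86.4, 89.8 and 106 FPKM in dgk1, and 106, 101 and 107 FPKM in WT. For IAA21 the OE2 libraries lay below WT and overlapped with dgk1.

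The 3 most abundant models of the Aux/IAA class were IAA19, IAA1 and IAA2. IAA19 had 212, 212 and 232 FPKM in OE2, 222, 184 and 231 FPKM in dgk1, and 211, 189.7 and 157 FPKM in WT. It ran against the family, with the OE2 libraries just above the highest of WT and no call (0.24 ± 0.13, limma adjusted p = 0.349). IAA1 had 111, 117 and 113 FPKM in OE2, 132, 127 and 148 FPKM in dgk1, and 144, 133 and 126 FPKM in WT. All OE2 libraries were below the other 6, a narrow gap that was not called (OE2 against WT -0.24 ± 0.09, limma adjusted p = 0.196). IAA2 had 120.2, 83.6 and 120.1 FPKM in OE2, 104, 105 and 82.5 FPKM in dgk1, and 78.4, 119.6 and 123 FPKM in WT, with 1 low library in every line and no separation. IAA5, IAA30, IAA13, IAA3, IAA9, IAA7 and IAA25 averaged 2.22 to 83.5 FPKM, and none was called in any comparison. IAA18 and IAA33 averaged 0.473 and 0.442 FPKM and were not tested. IAA6, IAA12, IAA15, IAA17, IAA20, IAA28, IAA29 and IAA31 were listed at 0 throughout.

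**Figure D3:**
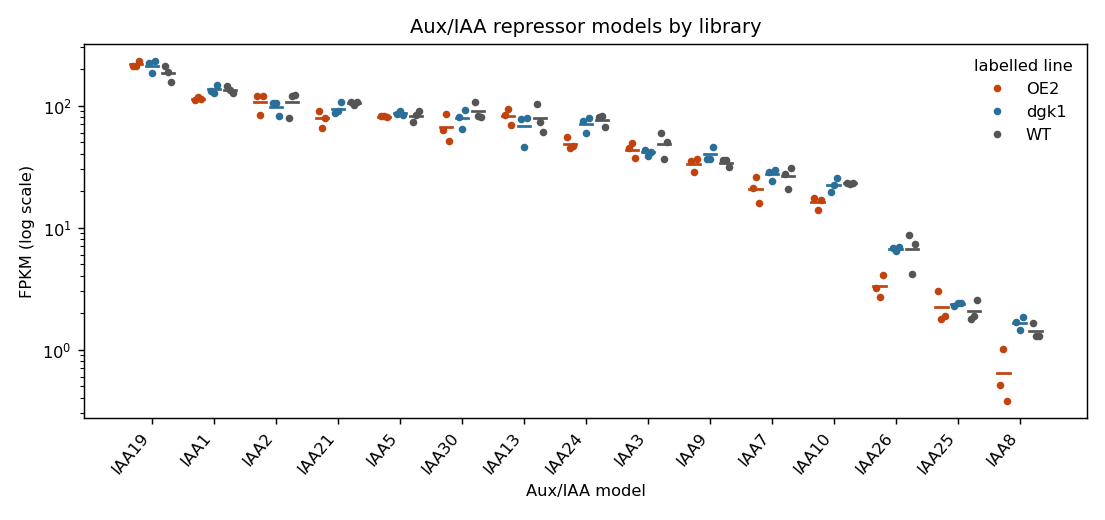
FPKM on a log scale of the 15 tested Aux/IAA models, ordered by mean level, with 1 point per library and a bar at the mean of each line. OE2 points lie below those of both other lines for IAA24, IAA10, IAA8, IAA26 and IAA1, while IAA19, IAA2 and IAA5 lie close together.

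Response factors, the proteins that bind DNA and carry out the auxin response, gave 1 call among 11 tested. It was in OE2 against dgk1, where 6.36% of all tested models were called and 3.15% were called lower. ARF8 (OS02G0628600, chromosome 2, 25133526 to 25136096, plus strand) had 56.4, 51.1 and 53.4 FPKM in OE2, 74.1, 67.9 and 73.3 FPKM in dgk1, and 71.8, 68.7 and 64.3 FPKM in WT. The OE2 libraries formed a group of their own below the other 6. ARF8 fell to 53.7 ± 2.67 FPKM in OE2, against 71.8 ± 3.36 FPKM in dgk1 (SD, n = 3 each; log2 fold change -0.41 ± 0.09, limma adjusted p = 0.0251). The call was lost without dgk1 replicate 1 (limma adjusted p = 0.102), dgk1 replicate 3 (0.0972), OE2 replicate 1 (0.0532), OE2 replicate 2 (0.0769) or OE2 replicate 3 (0.0863), and without trend or robust variance (0.0599). OE2 against WT, where WT was at 68.3 ± 3.79 FPKM, gave -0.34 ± 0.09 and missed the threshold (limma adjusted p = 0.0548), which it passed with upper quartile scaling (0.0419). Of the 149 models tested within 1 Mb, 0 were called in OE2 against dgk1, and 3.26% on chromosome 2.

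ARF6 was nearly as abundant as ARF8 and showed no such gap. It had 67.9, 57.5 and 60.0 FPKM in OE2, 57.2, 67.8 and 47.5 FPKM in dgk1, and 60.8, 72.6 and 62.3 FPKM in WT. The lines overlapped throughout, and the 95% interval of the log2 fold change in OE2 against WT was -0.40 to 0.25. ARF17 had 45.4, 43.9 and 37.7 FPKM in OE2, 50.4, 51.3 and 53.1 FPKM in dgk1, and 44.2, 46.1 and 47.7 FPKM in WT. The dgk1 libraries were highest, wholly above both other lines, with no call (OE2 against dgk1 -0.28 ± 0.10, limma adjusted p = 0.150). ARF24 had 6.02, 5.74 and 7.30 FPKM in OE2, 8.12, 7.35 and 7.82 FPKM in dgk1, and 7.76, 9.84 and 9.53 FPKM in WT, again with OE2 lowest and no call (OE2 against WT -0.45 ± 0.13, limma adjusted p = 0.0949).

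Model 38053, the numbered partner of OS08G0520550, had 12.3, 10.8 and 9.92 FPKM in OE2, 12.9, 12.1 and 13.2 FPKM in dgk1, and 9.35, 10.9 and 10.7 FPKM in WT. Here dgk1 did not overlap with WT, and OE2 overlapped with both; the log2 fold change of dgk1 against WT was 0.28 ± 0.12 (limma adjusted p = 0.435). The remaining tested factors, ARF9, ARF3, ARF13 and models 3123, 32373 and 15141, averaged 1.24 to 42.9 FPKM and none was called. Summed over the 39 models, response factors had 244, 241 and 218 FPKM in OE2, 279, 269.9 and 273 FPKM in dgk1, and 275, 271 and 257 FPKM in WT. Every OE2 sum was below every other, while dgk1 and WT overlapped, and ARF8 alone held 25.0% of the class. The median log2 fold change over the 11 tested factors was -0.02 in OE2 against WT, -0.19 in OE2 against dgk1 and 0.07 in dgk1 against WT.

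**Figure D4:**
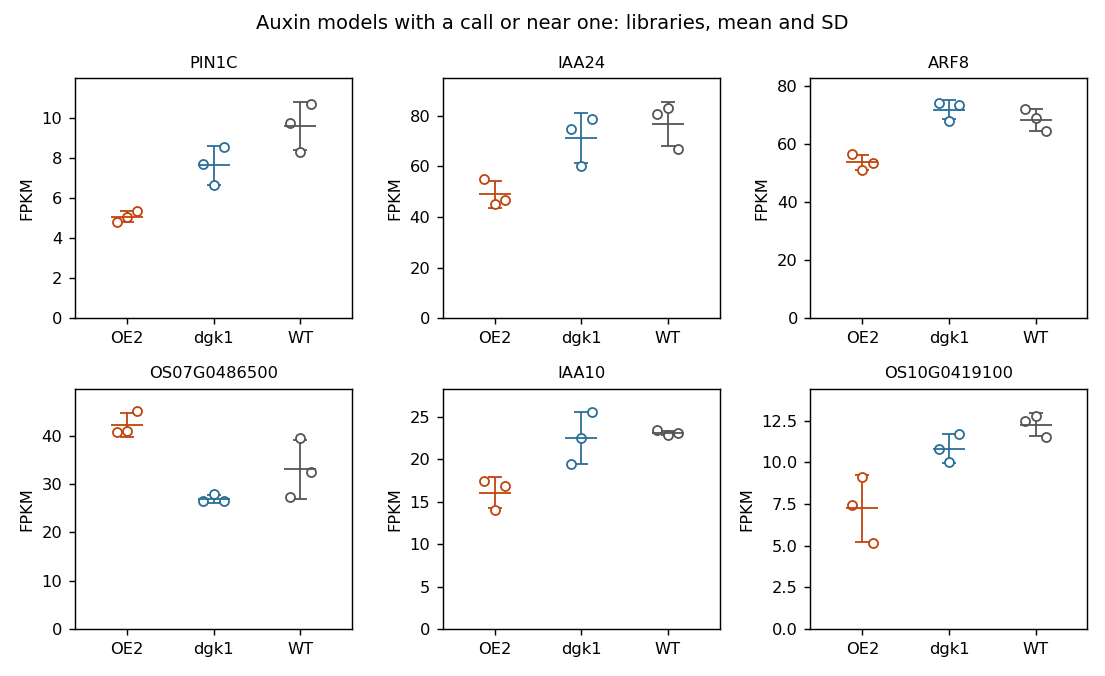
FPKM by line of the 4 called auxin models (PIN1C, IAA24, ARF8 and OS07G0486500) and of 2 that came near the threshold (IAA10 and OS10G0419100). Open circles are libraries and bars the mean ± SD of 3; OE2 lies lowest in 5 panels and highest in that of OS07G0486500.

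SAUR genes are small, quickly induced targets of auxin, and none of the 9 tested models was called by limma in any comparison. Calls made up 6.96% of the whole tested set for OE2 against WT, 6.36% for OE2 against dgk1 and 0.675% for dgk1 against WT. For an unadjusted p under 0.05 the shares of that set were 20.6%, 18.7% and 11.1%, in the same order. Among the SAUR models there was 1, OS12G0626200, in OE2 against WT. It had 1.37, 0.964 and 1.25 FPKM in OE2, 1.04, 2.82 and 1.32 FPKM in dgk1, and 3.74, 1.82 and 3.09 FPKM in WT, with OE2 wholly below WT (-0.80 ± 0.27, limma adjusted p = 0.140). With 9 models, the SAUR counts cannot show if the class differed from the whole tested set. The class leaves out models described only as auxin-induced protein-like, which may include members of the family. Of the summed level of the models classed as SAUR 56.9% came from model 32369. Model 32369 had 66.1, 58.0 and 57.6 FPKM in OE2, 65.6, 47.5 and 58.0 FPKM in dgk1, and 71.9, 61.6 and 43.3 FPKM in WT, with no separation of the lines.

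SAUR39 (OS09G0545300), described in rice as a repressor of auxin synthesis and transport, had 16.6, 7.20 and 14.0 FPKM in OE2, 13.5, 13.1 and 6.52 FPKM in dgk1, and 9.95, 22.4 and 15.8 FPKM in WT. The files name it SAUR39 and describe it as SAUR36. OS03G0660500 moved the other way between libraries, with 6.38, 17.0 and 11.4 FPKM in OE2, 5.75, 5.23 and 12.3 FPKM in dgk1, and 14.8, 3.93 and 4.47 FPKM in WT. Both varied more within each line than between lines, and OS03G0660500 has a neighbour of the same family, OS03G0660300, with which it may share reads. Model 13293 had 11.4, 7.44 and 10.5 FPKM in OE2, 6.27, 13.2 and 5.93 FPKM in dgk1, and 7.99, 13.6 and 12.8 FPKM in WT, also without separation. The class medians were -0.20 in OE2 against WT, 0.09 in OE2 against dgk1 and -0.10 in dgk1 against WT.

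GH3 genes were low. GH3.2, a probable IAA-amido synthetase, made up 59.1% of the class and had 10.9, 16.6 and 11.6 FPKM in OE2, 10.9, 11.6 and 13.4 FPKM in dgk1, and 13.3, 14.2 and 6.36 FPKM in WT, with full overlap. GH3.8, which in rice ties IAA to aspartate, had 2.81, 5.27 and 2.51 FPKM in OE2, 4.64, 5.72 and 8.26 FPKM in dgk1, and 4.11, 3.18 and 4.25 FPKM in WT. All dgk1 libraries lay above WT and no call was made (dgk1 against WT 0.55 ± 0.26, limma adjusted p = 0.494). GH3.3 (OS01G0221100), described in the files as a jasmonic acid-amido synthetase and so an enzyme of another hormone, had 0.598, 0.580 and 0.792 FPKM in OE2, 1.27, 1.65 and 1.04 FPKM in dgk1, and 0.949, 0.782 and 0.785 FPKM in WT.

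Both GH3.3 and GH3.8 had their highest mean in dgk1. GH3.3 reached the filter through its dgk1 libraries alone, where it is highest, so its differences from dgk1 are a description and no test of them is given. GH3.8 was not called in OE2 against dgk1 (limma adjusted p = 0.201). Model 35496, with a GH3 domain, averaged 1.07 FPKM. Its mean was also highest in dgk1 (1.18 FPKM, against 1.06 in OE2 and 0.957 in WT), but the lines overlapped. The 10 other GH3 models, GH3.1, GH3.4, GH3.5, GH3.7 and GH3.12 among them, stayed below the filter or at 0. Their levels were at most 0.673 FPKM on average, and they were not tested.

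**Figure D5:**
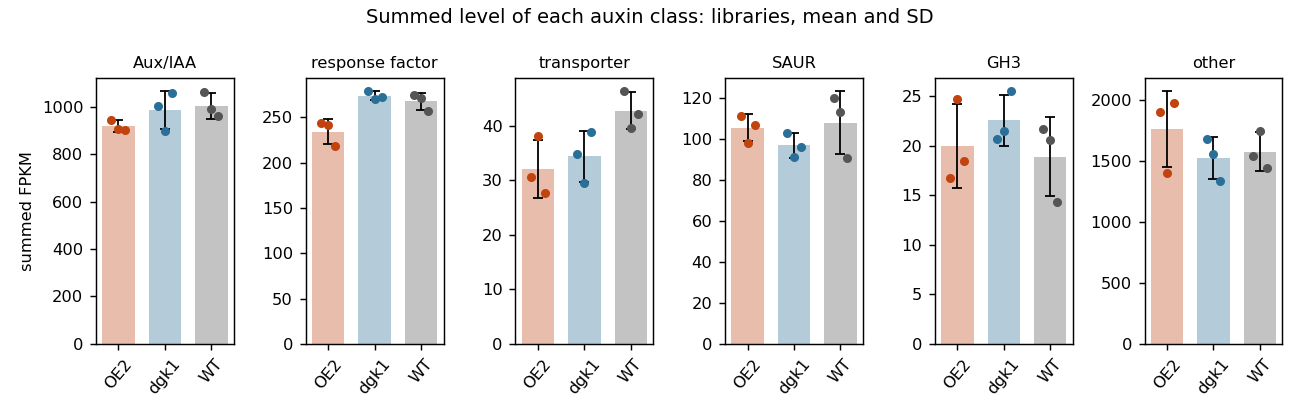
Summed FPKM of all models of each auxin class by line. Bars are means with SD over 3 libraries and points are libraries; the response factor sum is lowest in OE2 (218 to 244 FPKM) without overlap, and the other panels overlap between OE2 and at least 1 other line.

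The 27 further models were set apart by wording alone, and some overlap numbered models of the families above. Models 1532 and 8584, which overlap OS01G0286900 and OS11G0221000, carry an AUX/IAA domain. Model 39529, classed as SAUR, overlaps OS09G0437400, described as auxin-induced protein-like. Among the 27 further models 19 were tested, and 1 of these was called, in OE2 against dgk1, where 6.36% of all tested models were. OS07G0486500, described as auxin-regulated protein-like (chromosome 7, 17907341 to 17912298, plus strand), had 40.8, 41.0 and 45.1 FPKM in OE2, 26.6, 28.0 and 26.5 FPKM in dgk1, and 27.3, 39.5 and 32.6 FPKM in WT. OE2 lay above all other libraries, and WT spread over the range down to dgk1. It rose to 42.3 ± 2.44 FPKM in OE2, against 27.0 ± 0.879 FPKM in dgk1 (SD, n = 3 each; log2 fold change 0.63 ± 0.13, limma adjusted p = 0.0255). Leaving out any single OE2 or dgk1 library ended the call, with limma adjusted p of 0.0719, 0.0619 and 0.102 without OE2 replicates 1, 2 and 3 and 0.0897, 0.0664 and 0.0912 without dgk1 replicates 1, 2 and 3. OE2 against WT gave 0.36 ± 0.13 (limma adjusted p = 0.171), and 0.49 without WT replicate 2 (0.0436). Of the 93 models tested within 1 Mb, 11 (11.8%) were called in OE2 against dgk1, and 5.98% on chromosome 7.

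OS10G0419100, described as auxin-induced protein PCNT115, came closest without a call. It had 7.43, 9.15 and 5.14 FPKM in OE2, 10.8, 10.0 and 11.7 FPKM in dgk1, and 12.5, 12.8 and 11.5 FPKM in WT. All OE2 libraries were below the rest (OE2 against WT -0.71 ± 0.18, limma adjusted p = 0.0515), and the threshold was passed without OE2 replicate 2 (0.0214), with upper quartile scaling (0.0425) and with voom (0.0295). OS03G0194300, an auxin-responsive protein, had 3.10, 3.04 and 2.48 FPKM in OE2, 3.84, 2.64 and 4.21 FPKM in dgk1, and 5.35, 4.20 and 5.40 FPKM in WT, with OE2 below WT and dgk1 overlapping with both (OE2 against WT -0.62 ± 0.17, limma adjusted p = 0.0742).

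OS03G0797800, another model described as an auxin-responsive protein without an IAA number, showed the smallest unadjusted p of all 65 models in dgk1 against WT. Its description does not say which family it belongs to. It had 2.45, 1.73 and 2.51 FPKM in OE2, 7.03, 4.41 and 4.43 FPKM in dgk1, and 2.34, 3.77 and 1.02 FPKM in WT. The dgk1 libraries were the highest of the 9 (dgk1 against WT 0.96 ± 0.31, limma adjusted p = 0.298), which is no call. OS02G0643800, an auxin-responsive protein-like model, had 142, 134 and 150.1 FPKM in OE2, 115, 119 and 95.5 FPKM in dgk1, and 120.2, 132 and 142 FPKM in WT. Here dgk1 was lowest without overlap (dgk1 against WT -0.26 ± 0.11, limma adjusted p = 0.445).

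The highest level of any auxin model was that of OS03G0342900, a dormancy and auxin associated protein, with 1315, 849.7 and 1359 FPKM in OE2, 1065, 1042 and 816 FPKM in dgk1, and 934, 1175 and 860.0 FPKM in WT. It gave 64.5% of the summed level of its class, and the lines overlapped. OS06G0597000, described as an auxin-responsive protein without an IAA number, averaged 126 FPKM, above IAA2 at 104 FPKM. OS06G0597000 had 94.2, 120.3 and 98.0 FPKM in OE2, 163, 119 and 169 FPKM in dgk1, and 167, 103 and 95.5 FPKM in WT, also with overlap. ARGOS (OS04G0444300), named for an Arabidopsis regulator of organ size, had 68.6, 59.9 and 64.0 FPKM in OE2, 69.3, 50.2 and 45.3 FPKM in dgk1, and 52.4, 44.1 and 47.3 FPKM in WT. OE2 lay above WT and was not called (0.41 ± 0.16, limma adjusted p = 0.178).

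Genes of the pathway that the search words do not reach were matched by fixed lists: 37 models, of which 21 were tested. In OE2 against WT 1 rose and 1 fell, and in OE2 against dgk1 2 rose and 1 fell. In dgk1 against WT limma called 0, with 0 at an unadjusted p under 0.05, where 11.1% of all tested models had one. Of all tested models 6.96%, 6.36% and 0.675% were called in these 3 comparisons. The 1 tested receptor, of 3 matched, and the breakdown enzyme were not called. Of the untested receptor models, OS11G0515500 was listed at 0 throughout and OS04G0395600 held 1 fragment. The TIR1-like receptor OS05G0150500 had 15.2, 14.5 and 10.9 FPKM in OE2, 15.1, 16.6 and 13.4 FPKM in dgk1, and 14.2, 16.6 and 18.8 FPKM in WT (OE2 against WT -0.27, 95% interval -0.64 to 0.10). DAO, a dioxygenase that oxidises IAA, averaged 90.6 FPKM (-0.10, 95% interval -0.52 to 0.32). The names searched for TOPLESS corepressors and tryptophan aminotransferases matched 0 models.

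ILL1 (OS01G0560000), of the hydrolases that free IAA from its amino acid conjugates, had 283, 299 and 272 FPKM in OE2, 233, 209 and 219.9 FPKM in dgk1, and 187, 203 and 198 FPKM in WT. The lines did not overlap, with OE2 highest and WT lowest. ILL1 rose in OE2 against WT (log2 fold change 0.54 ± 0.08, limma adjusted p = 0.00462), a call that held in all 17 settings with limma adjusted p up to 0.0302. Its rise against dgk1 (0.37 ± 0.08, limma adjusted p = 0.0346) was lost whenever any single OE2 or dgk1 library was left out, with limma adjusted p of 0.108, 0.1 and 0.0735 without OE2 replicates 1, 2 and 3 and 0.065, 0.125 and 0.112 without dgk1 replicates 1, 2 and 3. It was also lost without trend or robust variance (limma adjusted p = 0.0881) and with voom (0.0528). The other tested hydrolases, ILL6 and ILL2, had log2 fold changes of 0.60 and 0.47 in OE2 against WT and were not called (limma adjusted p = 0.255 for ILL6 and 0.372 for ILL2).

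PINOID kinases in Arabidopsis phosphorylate PIN exporters and so steer them to one side of the cell. PID had 17.0, 13.5 and 19.5 FPKM in OE2, 28.2, 25.9 and 26.7 FPKM in dgk1, and 40.5, 25.3 and 24.7 FPKM in WT. PID2 had 2.42, 3.39 and 2.43 FPKM in OE2, 5.01, 4.55 and 4.36 FPKM in dgk1, and 5.07, 3.85 and 5.14 FPKM in WT. For both, every OE2 library lay below the other 6, and neither passed the threshold against WT (limma adjusted p = 0.054 for PID and 0.0573 for PID2).

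LOB domain proteins include CROWN ROOTLESS1, which rice needs to form crown roots. Of 9 tested, OS03G0609500 had 4.45, 6.57 and 2.95 FPKM in OE2, 11.0, 9.93 and 8.98 FPKM in dgk1, and 12.1, 8.14 and 11.6 FPKM in WT. OE2 lay below all others, and it fell against WT (-1.07 ± 0.24, limma adjusted p = 0.0342) and against dgk1 (ratio of mean FPKM 0.47, limma adjusted p = 0.0474). Leaving out WT replicate 1 or 3, any dgk1 library, or OE2 replicate 1 or 3 ended both calls, with limma adjusted p up to 0.114 against WT and 0.154 against dgk1 over all settings. Both were also lost with no filter (limma adjusted p = 0.062 against WT and 0.0828 against dgk1) and in fits of the 6 libraries alone (0.0972 and 0.0723), and the call against dgk1 with a pseudocount of 0.1 (0.0522) and without trend or robust variance (0.0513). OS03G0287400 had 5.13, 5.33 and 4.98 FPKM in OE2, 2.55, 1.32 and 2.13 FPKM in dgk1, and 3.76, 2.67 and 1.96 FPKM in WT. OE2 was the highest line without overlap, and it rose against dgk1 (1.06 ± 0.21, limma adjusted p = 0.0203). That call was lost without dgk1 replicate 2 or 3 or any OE2 library (limma adjusted p up to 0.07). The untested LOB domain model 38016, named after its values were seen, had 2.25, 0.732 and 1.06 FPKM in OE2, 0, 0 and 0 FPKM in dgk1, and 0, 0 and 0.121 FPKM in WT, and held 23 fragments in OE2, 0 in dgk1 and 1 in WT.

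Since the search words found no synthesis gene, flavin-containing monooxygenases, the family that includes YUCCA, were looked up after the values had been seen; none is named YUCCA in the files, so their part in auxin synthesis is not known from them. Of 22 such models 8 were tested. OS06G0528700 had 2.18, 3.27 and 2.30 FPKM in OE2, 1.20, 0.966 and 1.10 FPKM in dgk1, and 0.612, 0.112 and 0.297 FPKM in WT. The 3 lines did not overlap. It would miss the filter without its OE2 libraries, where it is highest, so this is a description and no test is given. OS04G0128900 had 40.6, 50.4 and 31.5 FPKM in OE2, 84.8, 84.5 and 112 FPKM in dgk1, and 86.8, 61.8 and 65.4 FPKM in WT. OE2 was lowest, and it fell against dgk1 (-1.19 ± 0.20, limma adjusted p = 0.00837), near the start of chromosome 4 where 45.0% of tested models within 1 Mb were called. For OS04G0128900 a difference of the stretch and one of the gene cannot be told apart. OS01G0645400 had 0.267, 0.494 and 0.411 FPKM in OE2, 1.72, 1.42 and 1.57 FPKM in dgk1 and 0.523, 0.431 and 1.17 FPKM in WT. Its dgk1 libraries were the highest and carried it past the filter, so no test of it is given either.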

How the data were processed

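RNA was measured in 9 libraries of rice roots, 3 for each of OE2, dgk1 and WT, grouped by the labels. The values deposited by the authors are in FPKM; no label names the unit, and it was inferred from the numbers and the gene length given per the file headers. CASAVA 1.8 and HISAT2 are named per the submitters' processing notes; the sources used here name no counter, strand setting, genome build or annotation, and coordinates are as the files list them. Multiplied by length, 100% of values were whole multiples of 1 step per library (tolerance 0.01), which gave the fragments. The depth that this step implies was not the sum of the fragments. It was 13945865 against 12459460 in WT replicate 3 and 9231343 against 9825343 in OE2 replicate 2. The reason was not tested. A model was kept if 3 or more libraries reached 1 FPKM. limma 3.58.1 (R 4.3.3, statmod 1.5.0), with trend and robust variance, was fitted once to log2(FPKM + 1) of all 9 libraries, two-sided, with Benjamini-Hochberg adjustment over 22383 models and a threshold of 0.05; the test was checked on simulated data. A pseudocount understates changes of low genes. Intervals are limma's 95% intervals.

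The auxin models, roles, pathway lists and tests were chosen with earlier results of these data known. Of 131 matches 1 was left out, since the match lay within a database accession only. The text names each called model, the 3 most abundant per role, the 5 with the smallest p per comparison, any auxin model at 0 in every library of 1 line and at 1 FPKM or more in every library of another (0 found), and called pathway genes; others were chosen after their values were seen. All 9 pairs of replicates differed by more than sampling noise (chi-square per degree of freedom 5.01 to 18.7). Alternatives were other filters, a pseudocount of 0.1, upper quartile scaling, the replicate number as a block, a fit of just the 6 libraries compared, no trend, each library left out and, added after seeing the data, limma's voom on recovered fragments.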

Additional observations from a re-analysis of the deposited data

How the results depend on the processing

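The count of auxin models called in OE2 against WT (2) was 1 with no filter, 1 with the 6 libraries alone, 4 with upper quartile scaling, and 1 to 3 when single libraries were left out. In OE2 against dgk1 (2) it was 5 with voom on recovered fragments, which added IAA24, IAA8 and GH3.3 (the last had passed the filter through dgk1 alone), and 0 to 3 when single libraries were left out. It was 0 without OE2 replicate 1 or 3 or dgk1 replicate 1 or 3. In dgk1 against WT it was 0 in every setting, with 1 to 7 at an unadjusted p under 0.05. The share of all tested models called was taken in the main setting only. These counts, and those with the replicate block, thus do not show if the auxin models moved apart from all tested models. The transporter median in OE2 against WT was -0.71 with a filter of 5 FPKM, which keeps fewer models, and -0.71 with voom. The GH3 median was 0.44 with a pseudocount of 0.1 and 0.50 with voom in dgk1 against WT, and -0.49 and -0.50 in OE2 against dgk1. The cause was not tested. These GH3 medians include GH3.3, which passed the filter through dgk1 alone, so they are a description only. The other 300 class medians stayed within their spread. IAA24 in dgk1 against WT, not called, ranged from -0.21 to 0.00 when single libraries were left out, and reached 0.00 without dgk1 replicate 2. No scaling moved the median of all models by more than 0.007 in size (log2, -0.007).

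With the replicate number as a block, 1 model was called in OE2 against WT, 0 in OE2 against dgk1 and 0 in dgk1 against WT. Calls absent there were those of IAA24 in OE2 against WT (limma adjusted p = 0.0646), OS03G0609500 against WT (0.0812) and dgk1 (0.105) and, in OE2 against dgk1, ARF8 (0.0709), OS07G0486500 (0.0535) and ILL1 (0.118). The labels do not say if the numbers pair the samples. Deviations of same-numbered libraries correlated at -0.16 to 0.06 over 9 pairs, and those of differently numbered libraries at -0.17 to 0.20. With 3 libraries a line these values cannot settle if the samples were paired. A library left out leaves its line with 2, and the spread is pooled over the lines. Models that did not reach 1 FPKM in 3 libraries, among them several PIN, GH3 and ARF genes, were not tested.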

Other observations

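The libraries highest in PIN9 within their line, OE2 replicate 2, dgk1 replicate 3 and WT replicate 1, were also highest of their line in IAA1, IAA13, IAA30, IAA8, ARF3 and ARF9, and lowest in IAA2, ARF6 and SAUR39. Nicotianamine synthase NAS2, a root marker of iron uptake, had 83.2, 736 and 50.3 FPKM in OE2, 185, 125 and 192 FPKM in dgk1, and 69.6, 56.1 and 49.3 FPKM in WT. NAS2 was highest in the same 3 libraries, as were the root markers NAS1 and Casparian strip membrane protein 3. The other tested root markers, LSI2, LSI3, NAS3, NAR2.2 and Casparian strip membrane protein 7, did not share this pattern. LSI2 was lowest of its line in OE2 replicate 2 (197 FPKM) and WT replicate 1 (237 FPKM). The part of these markers in the spread of the auxin models was not tested.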
